A study of Mus musculus with 9 samples.

Results

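The comparison set a stronger against a weaker short hairpin RNA directed at Rad21 in primary mouse neural stem cells. Libraries were chosen by hairpin from the sample labels: 3 of shRad21_2, the stronger, and 3 of shRad21_1, the weaker, or 6 of the 9 libraries in the series. The other 3 libraries carried a non-targeting hairpin (shNT). They entered no test, and their levels are given beside the hairpin levels as background. The cells came from the cortex of embryos at E13.5, were selected as neurospheres and were then grown on laminin (5 µg/mL) with FGF (10 ng/mL) and EGF (20 ng/mL). All 3 groups had the same genotype, wild type with floxed Phf2 alleles (Phf2flox/flox), and no Cre is named in the labels. Hairpins were delivered by viral particles, and the time of harvest is labelled NA. No label says whether the libraries of a group were separate cultures or animals, so the p-values cover only how much these libraries varied, and that variation may be technical. Each hairpin is a single sequence, so a deeper loss of Rad21 and a different hairpin cannot be told apart.

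Cohesin is a ring of SMC1A, SMC3, the kleisin RAD21 and a STAG subunit. It holds sister chromatids together until RAD21 is cleaved at anaphase. Outside mitosis it extrudes chromatin loops that stop at CTCF sites, and in neural cells it is known for its part in long-range gene control, including promoter choice at the clustered protocadherins.

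Levels are given as CPM, the counts of a gene scaled to the size of its library. The libraries held between 34780003 and 46644607 counts, and 3 counts were worth 0.0656 to 0.0867 CPM. Of 24503 genes in the table, 7138 had no count in any of the 6 hairpin libraries and 13230 were tested. Replicate 1 of shRad21_1 stood apart from replicates 2 and 3 of its group. Along the leading principal component (61.5% of the variance) it lay at -12.0, replicates 2 and 3 at -35.9 and -36.1, and the shRad21_2 libraries between 26.7 and 30.5. Replicates 2 and 3 of shRad21_1 were also unusually alike: their counts differed by a chi-square of 2.17 per gene, against 46.9 to 67.5 for the other pairs within the hairpin groups. They are not identical, and whether they share a culture is not stated. Results are therefore given for all 6 libraries, without replicate 1 of shRad21_1, and as calls that were kept when each of the 6 libraries was left out in turn.

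Rad21, the target of both hairpins, lies at chr15:51962240-51991747 (GRCm38). Its level in replicates 1, 2 and 3 was 185, 173 and 177 CPM under shRad21_1 and 81.0, 89.9 and 81.8 CPM under shRad21_2. The shNT libraries held 530, 449 and 454 CPM, so the 3 groups did not overlap and shRad21_2 was the lowest. The group means were 178 ± 6.48 CPM (SD, n = 3) for shRad21_1 and 84.2 ± 4.93 CPM (SD, n = 3) for shRad21_2. On the log2 scale, shRad21_2 minus shRad21_1 was -1.08 (SE 0.08, edgeR adjusted p = 8.58e-04). Every shRad21_2 library was below every shRad21_1 library. The gene was called in 15 of 16 alternative analyses, the exception being the test against an absolute log2 fold change of 1.

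Of the other ring subunits, the SMC arms and Stag1 were higher under shRad21_2. Stag1, which encodes a STAG subunit, was at 171, 157 and 153 CPM under shRad21_1 and at 231, 270 and 244 CPM under shRad21_2. Its shNT level was lower than both, at 102 to 113 CPM. The fold change was 0.63 (log2, SE 0.09, edgeR adjusted p = 0.00555), and the call was kept without each library in turn. Smc1a, an arm of the ring, rose by 0.31 on the log2 scale (SE 0.07, edgeR adjusted p = 0.0275), from 299 to 305 CPM up to 370 to 378 CPM. Smc3, the other arm, rose by 0.33 (SE 0.08, edgeR adjusted p = 0.0313), from 202 to 219 CPM up to 255 to 278 CPM. The groups did not overlap for either gene. Both calls were lost without replicate 2 or 3 of shRad21_1 or replicate 3 of shRad21_2, with adjusted p up to 0.146 for Smc1a and 0.121 for Smc3; Smc1a was also lost without shRad21_2 replicate 1 (0.0528) and Smc3 without shRad21_2 replicate 2 (0.0562). Stag2 reached 301 to 400 CPM under shRad21_2 against 297 to 306 CPM and did not pass (log2 0.20, edgeR adjusted p = 0.247). The meiotic Stag3 stayed at 2.84 to 4.17 CPM in all 6 libraries, with groups that overlapped.

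**Figure D1:**
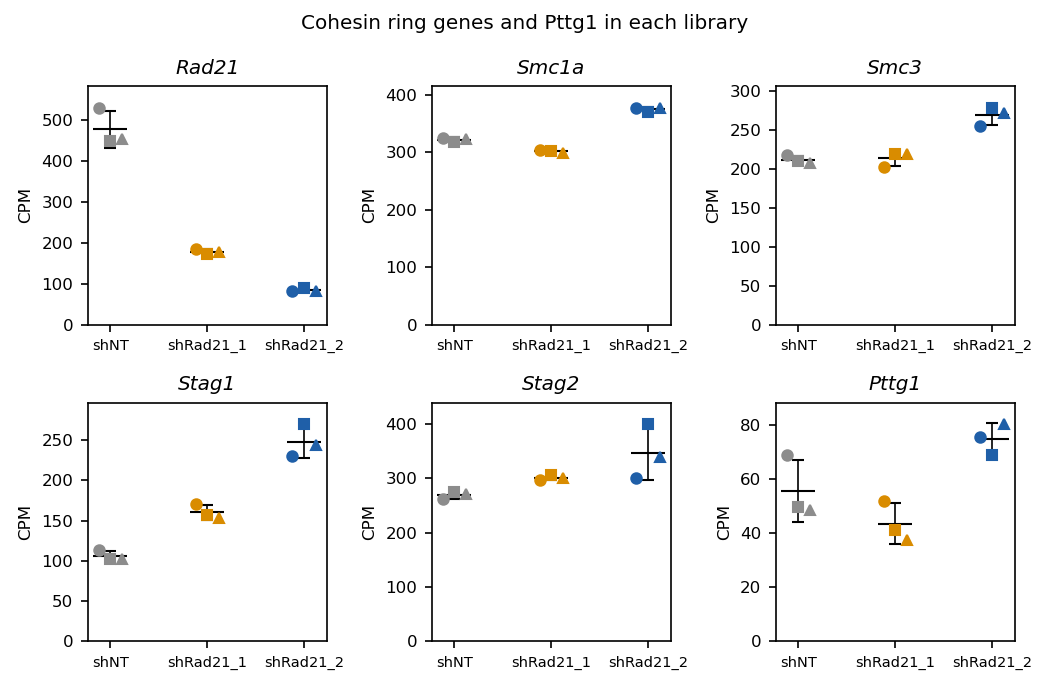
Level in CPM (y axis, from 0) of 5 cohesin ring genes and Pttg1 in each library of the 3 groups (x axis). Circles, squares and triangles are replicates 1, 2 and 3, and the bar with its error shows the mean and SD. Rad21 stepped down from shNT to shRad21_1 to shRad21_2, while Stag1 stepped up in the same order.

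Among 14 genes that load, release, acetylate, protect or anchor cohesin, Pttg1 was the only one called with all 6 libraries. That made 7.14% of the list higher, against 6.58% of all genes. Pttg1 encodes securin, the inhibitor of the protease that cleaves RAD21. It was at 51.8, 41.1 and 37.4 CPM under shRad21_1 and at 75.3, 68.9 and 80.2 CPM under shRad21_2, with no overlap. The difference was 0.78 (log2, SE 0.13, edgeR adjusted p = 0.00888), and it was kept without each library. Its shNT level was 48.5 to 68.8 CPM. Espl1, the protease separase itself, did not pass (0.29, edgeR adjusted p = 0.0766), though it did without shRad21_1 replicate 1 (0.33, adjusted p = 0.0459). The loader genes Nipbl (0.12, adjusted p = 0.657) and Mau2 (-0.04, adjusted p = 0.772) had overlapping groups in the same edgeR test. The release factor Wapal, listed under its older symbol, gave 0.04 (adjusted p = 0.807), and the partners Pds5a and Pds5b gave 0.06 and 0.10 (adjusted p = 0.754 and 0.603). Ctcf, whose product anchors loops, was at 187 to 195 CPM under shRad21_1 and at 198 to 213 CPM under shRad21_2. That difference of 0.10 did not pass either (edgeR adjusted p = 0.4).

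Across all genes, the hairpins differed mostly by genes that were lower under shRad21_2. The edgeR test called 2233 of 13230 genes (16.9%) at an adjusted p under 0.05, of which 871 (6.58%) were higher and 1362 (10.3%) lower. The lean to the lower side grew with the size of the change: 113 called genes were at least 2-fold higher and 671 at least 2-fold lower, and 3 were at least 8-fold higher against 92 at least 8-fold lower. The groups did not overlap for 2213 of the 2233. Over all 13230 genes tested, called or not, groups did not overlap for 2547 genes higher and 2629 genes lower under shRad21_2. With replicate 1 of shRad21_1 left out, 3509 of 13429 genes were called (26.1%), 1408 higher (10.5%) and 2101 lower (15.6%), and they included 2130 of the 2233 in the same direction. The call was kept without each library in turn for 585 genes (4.42%), 135 higher (1.02%) and 450 lower (3.4%). The count fell to 803 without shRad21_1 replicate 2, to 789 without shRad21_1 replicate 3, to 1385 without shRad21_2 replicate 1 and to 770 without shRad21_2 replicate 3. With replicates 2 and 3 of shRad21_1 summed to a single library, 804 genes were called, 170 higher and 634 lower. On library totals without a composition factor, 28.8% of called genes were higher, against 39.0% with the composition factor.

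The genes with the largest rises were mostly low under shRad21_1 and shNT alike. Car12, a membrane carbonic anhydrase, was at 4.36, 2.81 and 2.62 CPM under shRad21_1 and at 29.4, 25.8 and 27.0 CPM under shRad21_2. Its shNT level was 3.15 to 3.46 CPM, so the shRad21_2 libraries stood far above all 6 others. The difference was 3.07 on the log2 scale (SE 0.20, edgeR adjusted p = 5.38e-04), and the gene passed in all 16 alternatives. Afap1l2, an actin-associated adaptor, was at 9.79 to 13.4 CPM under shRad21_1 and at 61.7 to 67.6 CPM under shRad21_2 (log2 2.41, SE 0.14, edgeR adjusted p = 2.93e-04). Jph4, a junctophilin that ties the endoplasmic reticulum to the plasma membrane, was at 7.66, 19.7 and 18.8 CPM and then at 71.5, 76.6 and 71.2 CPM. Replicate 1 was the lowest of the shRad21_1 libraries for Jph4, on the side away from shRad21_2. Podxl, the sialomucin podocalyxin, was at 29.2 to 32.2 CPM under shRad21_1 and at 83.9 to 86.8 CPM under shRad21_2 (log2 1.49, SE 0.08, edgeR adjusted p = 2.73e-04). It was lower in shNT, at 17.4 to 19.7 CPM, so both hairpin groups lay above shNT.

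Of the 15 most raised genes, 9 kept the call without each library: Car12, Fam19a4, Afap1l2, Jph4, Ly6e, Phldb2, Rin3, Steap3 and Podxl. To be among the 15, a gene had to be called without shRad21_1 replicate 1, so that 1 of the 16 alternatives was fixed by the choice. Steap3, a ferrireductase, was at 1.27 to 1.86 CPM under shRad21_1, 3.87 to 4.99 CPM under shRad21_2 and 2.73 to 3.84 CPM in shNT, so here shRad21_1 was the group farther from shNT on the low side. Slc6a15, a neutral amino acid transporter, lost the call without shRad21_2 replicate 3 (edgeR adjusted p = 0.059). Kcnj12, Ampd3, Chd3, Myh6 and Atp6v0c-ps2 each lost it without 4 or 5 of the 6 libraries. Chd3, a subunit of the NuRD remodelling complex, shows how: shRad21_1 replicate 1 was at 42.9 CPM and replicates 2 and 3 at 16.3 and 15.7 CPM, against 58.3 to 76.1 CPM under shRad21_2. Its edgeR adjusted p was 2.76e-05 without that replicate, 0.0975 and 0.0948 without replicates 2 and 3 of shRad21_1, and 0.0886 to 0.105 without a shRad21_2 replicate. Atp6v0c-ps2 is a pseudogene of Atp6v0c, and reads could be shared between the copies.

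**Figure D2:**
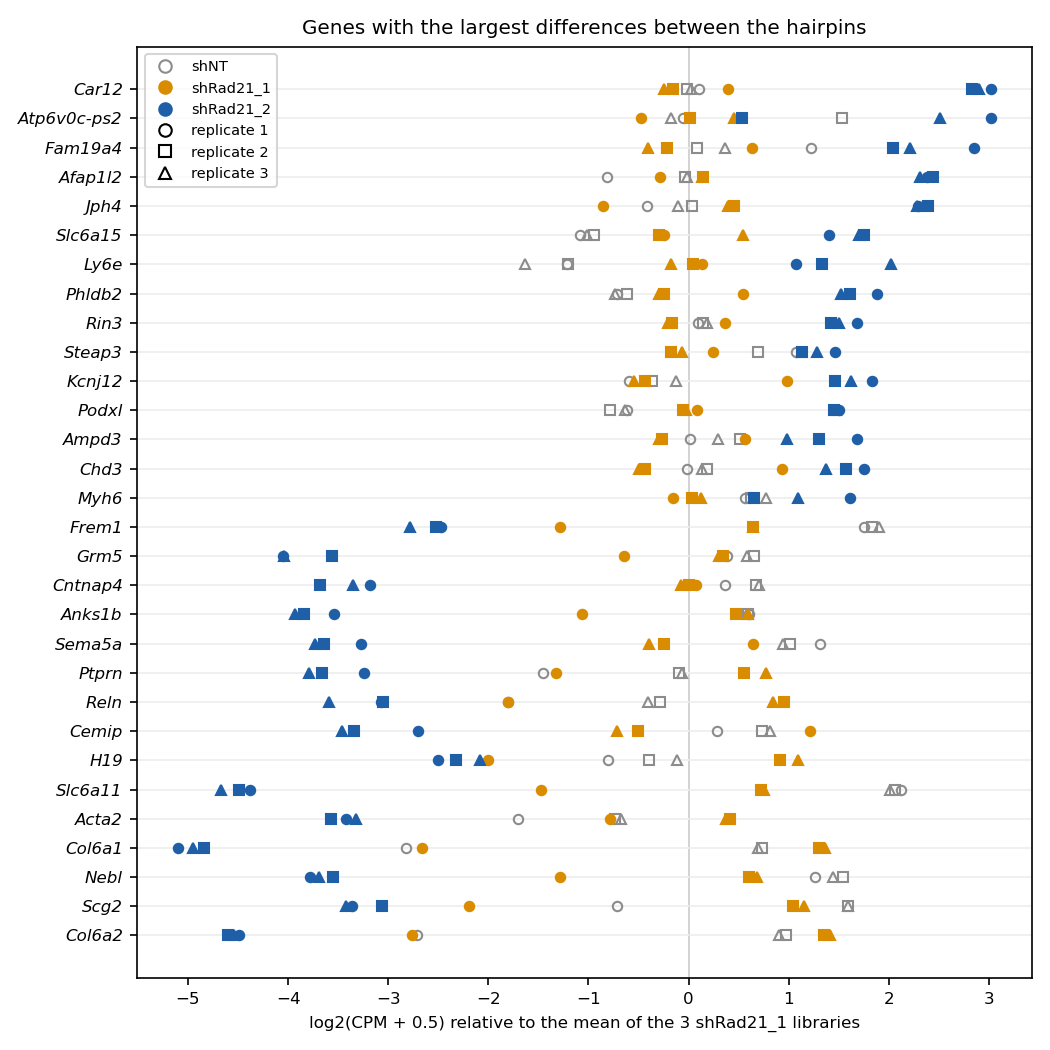
log2(CPM + 0.5) relative to the mean of the 3 shRad21_1 libraries (x axis) for the 15 genes most raised and the 15 most lowered under shRad21_2 (y axis). Open grey marks are shNT, and circles, squares and triangles are replicates 1, 2 and 3. The shRad21_1 replicate 1 circle lies towards shRad21_2 for many lowered genes, Col6a1 and Slc6a11 among them, and on the far side for Cemip and Sema5a.

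Genes lowered most included transmitter transport, synaptic and matrix genes. Slc6a11, the GABA transporter GAT-3, was at 29.2, 136 and 139 CPM under shRad21_1 and at 3.46, 3.18 and 2.74 CPM under shRad21_2. The shNT libraries were at 333 to 360 CPM, so the level stepped down from shNT to shRad21_1 to shRad21_2. The fold change was -5.01 (log2, SE 0.59, edgeR adjusted p = 0.00232), and all 16 alternatives called it. Grm5, a metabotropic glutamate receptor, was at 141, 281 and 274 CPM under shRad21_1 and at 12.9, 18.3 and 13.0 CPM under shRad21_2 (log2 -3.98, SE 0.30, edgeR adjusted p = 7.98e-04). Cntnap4, a neurexin-related cell adhesion protein, was even within each group, at 12.3 to 13.7 CPM and then 0.549 to 0.985 CPM (log2 -4.03, SE 0.22, edgeR adjusted p = 2.73e-04). Replicate 1 did not stand apart for Cntnap4. Sema5a, a transmembrane semaphorin, was at 25.1, 13.3 and 11.9 CPM under shRad21_1 and at 0.735 to 1.2 CPM under shRad21_2, with shNT highest at 30.9 to 40.2 CPM.

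Some of the lowered genes were nearly silent under shRad21_2. Nebl, a nebulin-family actin-binding protein, had 901 counts over the 3 shRad21_1 libraries and 7 over the 3 shRad21_2 libraries, a ratio of 132 on scaled counts (exact Clopper-Pearson interval at a confidence level of 0.95, 63.8 to 329, counting error only). Acta2, smooth muscle actin, was at 3.55, 8.80 and 8.56 CPM under shRad21_1 and at 0.0867 to 0.198 CPM under shRad21_2. Col6a1 and Col6a2, chains of collagen VI, were at 6.48, 108 and 113 CPM and at 1.59, 35.9 and 37.3 CPM under shRad21_1. Under shRad21_2 they were at 0.788 to 1.04 CPM and at 0.0867 to 0.131 CPM. Replicate 1 of shNT was low for the same pair, with 5.76 against 73.0 and 70.8 CPM for Col6a1 and 1.67 against 27.4 and 26.1 CPM for Col6a2. So a first replicate was low in both shNT and shRad21_1. That the groups under the 2 hairpins did not overlap was required for a gene to be among the 15, as was a call without shRad21_1 replicate 1. Their log2 fold changes were -6.37 (SE 1.04, edgeR adjusted p = 0.0078) and -7.75 (SE 1.31, edgeR adjusted p = 0.00854), and without shRad21_2 replicate 3 the adjusted p was 0.0575 and 0.0603. Cemip and Reln likewise lost the call without that library (0.0506 and 0.0626), Scg2 lost it without replicate 1 or 3 of shRad21_2 (0.0581 and 0.0675), and H19 lost it whichever library other than shRad21_1 replicate 1 was left out (0.0565 to 0.0898). The other 9 of the 15 kept it.

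The position of shRad21_1 replicate 1 between its own group and shRad21_2 was measured for each called gene, on log2(CPM + 0.5), as 0 at the mean of replicates 2 and 3 and 1 at the mean of shRad21_2. Its median was 0.14 over 2233 called genes (quartiles -0.16 and 0.38), and 0.26 over the 671 genes at least 2-fold lower. It was below 0, away from shRad21_2, for 834 genes, so the library did not lie towards shRad21_2 for every gene.

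The neural stem cell markers Nes and Sox2 stayed at high levels in every library, and a few markers of the stem cell list differed. Nes, the neural stem cell filament nestin, was at 1940, 1180 and 1220 CPM under shRad21_1 and at 2300 to 2660 CPM under shRad21_2. Sox2, a stem cell transcription factor, was at 265 to 380 CPM and at 343 to 426 CPM, with overlap and no call (0.16, edgeR adjusted p = 0.5). Of 27 stem cell and radial glia markers tested, 3 were higher (11.1%, against 6.58% of all genes) and 4 lower (14.8%, against 10.3%). Of the lowered, 3 kept the call without each library. Ptprz1, a receptor phosphatase of radial glia, was at 760, 1250 and 1270 CPM under shRad21_1, at 282, 387 and 271 CPM under shRad21_2 and at 1140 to 1300 CPM in shNT. Its fold change was -1.80 (log2, SE 0.22, edgeR adjusted p = 0.00288). Ednrb, an endothelin receptor, fell by 1.22 (SE 0.10, edgeR adjusted p = 8.58e-04), from 328 to 383 CPM down to 141 to 156 CPM. Slc1a3, the glutamate transporter GLAST, fell by 0.86 (SE 0.14, edgeR adjusted p = 0.00732), from 833 to 1160 CPM down to 543 to 603 CPM. Nes itself lost its call (log2 0.76, edgeR adjusted p = 0.0326) whichever library other than shRad21_1 replicate 1 was left out, with adjusted p of 0.0746 to 0.11. The summed level of all 28 markers was 10900 to 12700 CPM under shRad21_1 and 10400 to 11200 CPM under shRad21_2, against 12900 to 13000 CPM in shNT. In bulk RNA, fewer cells of a type and less RNA per cell cannot be told apart, here and for each marker list that follows.

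Markers of maturing glia were lower under shRad21_2. Of 17 astrocyte genes tested, 8 fell (47.1%, against 10.3% of all genes). The median log2 fold change of the list was -1.15, against 0.00 over all genes. Without shRad21_1 replicate 1, 13 of 19 fell, where 15.6% of all genes fell. Slc4a4, a sodium bicarbonate transporter, was at 88.9, 190 and 195 CPM under shRad21_1, at 29.4, 41.3 and 28.7 CPM under shRad21_2 and at 190 to 202 CPM in shNT (log2 -2.25, SE 0.30, edgeR adjusted p = 0.00394). Aldh1l1, a folate enzyme of astrocytes, was at 5.35 to 5.99 CPM and then at 0.694 to 1.47 CPM (log2 -2.41, SE 0.28, edgeR adjusted p = 0.00217). Acsbg1, an acyl-CoA synthetase, was at 230 to 279 CPM and then at 157 to 174 CPM. These 3 calls were kept without each library, and they were the only 3 left without shRad21_2 replicate 3. Over the list, shRad21_1 replicate 1 had a median level 0.77 log2 units below replicates 2 and 3, while the shRad21_2 libraries were 0.87, 1.72 and 1.51 below. The summed level of 22 astrocyte markers shows that overlap, at 1800, 2860 and 2860 CPM under shRad21_1, 1780 to 1960 CPM under shRad21_2 and 3180 to 3390 CPM in shNT.

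Of 13 oligodendrocyte-lineage genes tested, 7 fell (53.8%, against 10.3% of all genes) and 1, Bcas1, rose (7.69%, against 6.58%). The list median was -0.85. Pdgfra, the growth factor receptor of oligodendrocyte precursors, was at 18.7, 38.7 and 35.5 CPM under shRad21_1 and at 4.20, 6.10 and 5.12 CPM under shRad21_2. Its shNT level was 60.1 to 65.1 CPM, the highest of the 3 groups, and its fold change was -2.59 (log2, SE 0.29, edgeR adjusted p = 0.00187). It was the only one of the 7 to keep the call without each library, and the only one left without shRad21_2 replicate 3. Nkx2-2, a transcription factor of the lineage, fell by 2.06 (edgeR adjusted p = 0.0111) and lost the call without shRad21_2 replicate 3 (0.0622). The list's summed level was 3320 to 3500 CPM under shRad21_1, 2910 to 3360 CPM under shRad21_2 and 3080 to 3220 CPM in shNT.

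Of 21 neuronal genes tested, 5 fell (23.8%, against 10.3% of all genes) and 1 rose (4.76%, against 6.58%). The list median was -0.28. Gad1, which makes GABA, was at 4.47 to 4.81 CPM under shRad21_1, at 1.18 to 1.38 CPM under shRad21_2 and at 8.43 to 10.8 CPM in shNT (log2 -1.87, SE 0.19, edgeR adjusted p = 0.00146). It was the only neuronal call kept without each library, and 1 was lower without shRad21_2 replicate 3. Syt1, a synaptic vesicle calcium sensor, was at 96.8, 26.4 and 25.5 CPM under shRad21_1, at 9.68 to 9.96 CPM under shRad21_2 and at 7.16 to 8.33 CPM in shNT. For Syt1 it was shRad21_1, and most of all its replicate 1, that lay above shNT. Its fold change was -2.34 with all 6 libraries and -1.40 without shRad21_1 replicate 1 (edgeR adjusted p = 0.0209 and 6.06e-05), and the call was lost without each of the shRad21_2 replicates (0.0709 to 0.0909).

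Markers of cell types outside the neural lineage were low, apart from mesenchymal genes. Of 13 microglial markers, Aif1, Cx3cr1, Trem2, C1qa, C1qb and Tyrobp had no count in the 6 libraries, and the list summed to 3.23 to 3.54 CPM under shRad21_1, 1.49 to 1.59 CPM under shRad21_2 and 2.87 to 4.36 CPM in shNT. Of its 2 tested members, P2ry12 fell (log2 -1.99, edgeR adjusted p = 0.0176), a call lost without replicate 1 or 3 of shRad21_2 (0.063 and 0.0754). The 14 endothelial and pericyte markers summed to 9.04 to 15.6 CPM under shRad21_1 and 8.46 to 10.5 CPM under shRad21_2, with Cldn5 at 0. With all 6 libraries, none of the 5 tested was called by edgeR, DESeq2 or limma-voom, and 1 had an unadjusted p under 0.05 in edgeR. Without shRad21_1 replicate 1, edgeR called Kdr lower (log2 -0.86, adjusted p = 0.0454). With all 9 libraries in one fit, 2 genes of the list were called lower. Of 7 mesenchymal genes tested, 4 fell (57.1%, against 10.3% of all genes): Acta2, Prrx1, Col6a1 and Col6a2. Prrx1, a transcription factor, was at 74.5, 56.8 and 53 CPM and then at 33.8, 28.6 and 27.5 CPM (log2 -1.04, SE 0.15, edgeR adjusted p = 0.00528). The mesenchymal list summed to 764, 1240 and 1250 CPM under shRad21_1 and 1120 to 1270 CPM under shRad21_2, so its summed level overlapped between the groups. Its defining gene Dcn had no count. The part of these cell types in the other results was not tested.

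Among ciliated-cell markers, 1 was called lower. Foxj1, the master transcription factor of motile cilia, was at 12.8 to 14.5 CPM under shRad21_1, at 4.10 to 7.33 CPM under shRad21_2 and at 33.0 to 38.7 CPM in shNT (log2 -1.32, SE 0.21, edgeR adjusted p = 0.00741). It was the only called gene of 6 tested (16.7% lower, against 10.3% of all genes). Hydin, a protein of the ciliary axoneme, was at 20.7, 2.70 and 2.83 CPM under shRad21_1 and at 30.3, 25.3 and 19.4 CPM under shRad21_2, against 0.749 to 0.960 CPM in shNT. With replicate 1 between the groups it did not pass (log2 1.52, edgeR adjusted p = 0.181), and without that replicate it did (3.18, adjusted p = 3.5e-05).

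Matrix genes were lower under shRad21_2, among them 4 chains of basement membrane collagen IV. The largest folds in the list were those of Col6a1 and Col6a2, given above. Of 41 collagen, laminin and other matrix genes tested, 14 fell (34.1%, against 10.3% of all genes, list median -0.58). Of the 14, 9 kept the call without each library: Col4a1, Col4a2, Col4a5, Col4a6, Col5a1, Col11a1, Col12a1, Col18a1 and Fn1. Without shRad21_1 replicate 1, 21 fell and 4 rose among 43, where 15.6% of all genes fell and 10.5% rose. Without shRad21_2 replicate 3 the number lower was 9. Col4a5 and Col4a6 are neighbours on the X chromosome that are read outwards from start sites 1343 bases apart. Col4a5 was at 79.9, 68.7 and 70.9 CPM under shRad21_1, at 19.2, 18.5 and 15.1 CPM under shRad21_2 and at 77.5 to 84.6 CPM in shNT (log2 -2.05, SE 0.12, edgeR adjusted p = 3.07e-04). Col4a6 was at 10.4, 14.8 and 14.5 CPM, then 2.36, 1.91 and 1.73 CPM, and at 16.3 to 19.1 CPM in shNT (log2 -2.72, SE 0.21, edgeR adjusted p = 8.58e-04). For this pair the shRad21_1 libraries were near or a little under shNT and the shRad21_2 libraries were far below. All 16 alternatives called both genes.

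The 250 bases before each RefSeq start site of that pair (GRCm38.p6) are shown because the genes lie back to back and fell together. They run 5′ to 3′ on the strand of the gene, at chrX:141474077-141474326 on the minus strand for Col4a6 and at chrX:141475169-141475418 on the plus strand for Col4a5. Capitals mark the SP1 box, GGGCGG or its complement CCGCCC, which 65.3% of 10026 tested genes with a matched promoter hold on either strand in the same window.
Col4a6: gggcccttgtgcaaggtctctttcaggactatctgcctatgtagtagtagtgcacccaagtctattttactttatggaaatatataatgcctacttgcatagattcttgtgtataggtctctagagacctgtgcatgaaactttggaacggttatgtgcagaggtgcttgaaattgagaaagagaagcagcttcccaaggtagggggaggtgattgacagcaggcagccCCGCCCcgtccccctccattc
Col4a5: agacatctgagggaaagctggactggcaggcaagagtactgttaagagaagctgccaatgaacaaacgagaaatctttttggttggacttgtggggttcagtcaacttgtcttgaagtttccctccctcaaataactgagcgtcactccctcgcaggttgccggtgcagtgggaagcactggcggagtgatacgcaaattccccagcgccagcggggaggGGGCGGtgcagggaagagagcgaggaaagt
Each sequence holds 1 such box. The CTCF core that was searched, CCANNAGNNGGC on either strand, is not among the letters of either window.

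The second back-to-back collagen IV pair fell by less. Col4a1 was at 54.6, 46.7 and 51.4 CPM under shRad21_1 and at 23.9, 23.6 and 23.2 CPM under shRad21_2, with 66.8 to 75.5 CPM in shNT (log2 -1.11, SE 0.10, edgeR adjusted p = 0.00101). Col4a2 was at 16.5 to 18.9 CPM, then 10.6 to 11.3 CPM, and at 29.7 to 30.5 CPM in shNT (log2 -0.69, SE 0.11, edgeR adjusted p = 0.00717). Both stepped down from shNT to shRad21_1 to shRad21_2 without overlap. Fibrillar Col11a1 was at 32.3, 53.6 and 53.9 CPM under shRad21_1, at 5.75, 7.57 and 8.09 CPM under shRad21_2 and at 25.4 to 31.4 CPM in shNT, so shRad21_1 lay above shNT and shRad21_2 below it. Fn1, which encodes fibronectin, showed the same order in replicates 2 and 3, at 63.9, 93.0 and 97.4 CPM, then 25.3, 30.8 and 20.4 CPM, with 51.4 to 66.3 CPM in shNT.

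Integrins, the receptors that bind these matrix proteins, were lower as well: 6 of 16 tested fell (37.5%, against 10.3% of all genes, list median -0.69). Itga6, a laminin receptor subunit of neural stem cells, was at 117, 146 and 143 CPM under shRad21_1 and at 54.7, 60.9 and 51.4 CPM under shRad21_2, with 189 to 203 CPM in shNT (log2 -1.29, SE 0.12, edgeR adjusted p = 0.00107). Itgav, a vitronectin receptor subunit, was at 255 to 265 CPM and then 145 to 189 CPM (log2 -0.70, SE 0.12, edgeR adjusted p = 0.00834). Itga8 was at 20.2, 8.51 and 9.48 CPM and then 1.67 to 2.95 CPM. These 3 and Itga2 kept the call without each library. The cells of every group grew on laminin.

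**Figure D3:**
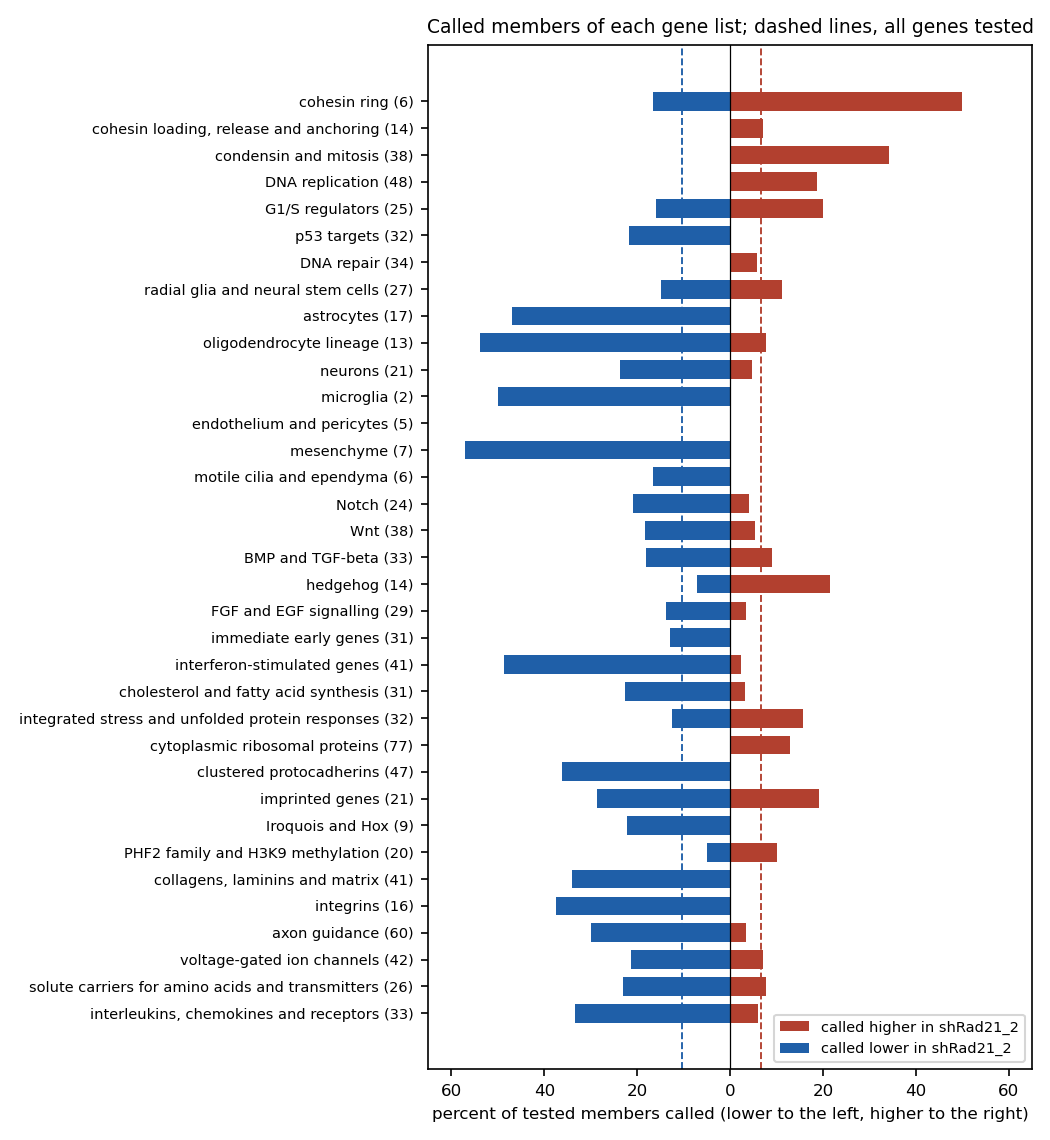
Percent of the tested members of each of 35 gene lists (y axis, number tested in parentheses) that were called lower (left bars) or higher (right bars) under shRad21_2. Dashed lines show the share over all genes tested, 10.3% lower and 6.58% higher. Lists of glial, matrix, integrin and interferon genes reach far to the left of the line, and condensin and mitosis genes to the right.

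Several secreted Wnt ligands fell. Of 38 Wnt genes tested, 7 fell (18.4%, against 10.3% of all genes) and 2 rose (5.26%, against 6.58%). The list median was -0.01. Wnt7b was at 26.5, 59.0 and 60.3 CPM under shRad21_1, at 5.58, 4.97 and 4.02 CPM under shRad21_2 and at 52.4 to 60.5 CPM in shNT (log2 -3.32, SE 0.33, edgeR adjusted p = 0.00139). Wnt7a was at 13.9, 30.3 and 28.9 CPM, then 3.41, 3.24 and 3.25 CPM, with 64.4 to 79.1 CPM in shNT (log2 -2.88, SE 0.29, edgeR adjusted p = 0.00152). The shRad21_2 values of Wnt7a agreed closely with each other, and shRad21_1 lay between them and shNT. Wnt5b was at 3.05 to 3.90 CPM and then at 0.983 to 1.02 CPM (log2 -1.78, SE 0.21, edgeR adjusted p = 0.00243). Of the 7, 6 kept the call without each library: Wnt4, Wnt5b, Wnt7a, Wnt7b, the receptor Fzd1 and the ubiquitin ligase Rnf43.

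In the hedgehog pathway the ligand was lower and transcription factors of the pathway higher. Shh was at 2.96, 2.70 and 2.62 CPM under shRad21_1 and at 0.810, 0.751 and 1.02 CPM under shRad21_2 (log2 -1.68, SE 0.23, edgeR adjusted p = 0.00465), with 0.741 to 2.51 CPM in shNT. Gli2, a transcription factor of the pathway, was at 11.7, 14.9 and 15.1 CPM, then 33.8, 29.9 and 25.7 CPM, with 13.7 to 15.6 CPM in shNT (log2 1.1, SE 0.15, edgeR adjusted p = 0.00409). Gas1, a co-receptor, was at 271 to 327 CPM, then 456 to 527 CPM, with 253 to 271 CPM in shNT (log2 0.79, SE 0.11, edgeR adjusted p = 0.00449). For Gli2 the shRad21_1 libraries were at the shNT level and only shRad21_2 stood above it. Gli3 also rose (log2 0.79, edgeR adjusted p = 0.0141) but not without replicate 2 or 3 of shRad21_1 (0.0554 and 0.0541). The list of 14 tested had 3 higher (21.4%, against 6.58% of all genes) and 1 lower (7.14%, against 10.3%), with a median of -0.06.

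Receptors for Notch and FGF ligands were among the lowered genes. Notch3 was at 81.6, 125 and 127 CPM under shRad21_1, at 50.2, 53.5 and 43.0 CPM under shRad21_2 and at 150 to 154 CPM in shNT (log2 -1.19, SE 0.18, edgeR adjusted p = 0.00583). Of 24 Notch genes tested, 5 fell (20.8%, against 10.3% of all genes) and 1 rose (4.17%, against 6.58%). Notch3 alone kept its call without each library. The number lower was 1 without replicate 2 or 3 of shRad21_1 or replicate 1 or 3 of shRad21_2. Fgfr2 was at 11.4, 13.9 and 14.2 CPM, then 3.06, 2.95 and 3.05 CPM, with 22.6 to 23.0 CPM in shNT (log2 -2.12, SE 0.15, edgeR adjusted p = 6.72e-04). Of 29 FGF and EGF genes tested, 4 fell (13.8%, against 10.3% of all genes) and 1 rose (3.45%, against 6.58%). The number lower was 1 without shRad21_1 replicate 2 or shRad21_2 replicate 3. Fgfr2 alone kept its call. With shRad21_1 replicate 1 left out, 12 of 25 Notch genes and 10 of 29 FGF and EGF genes fell, where 15.6% of all genes fell. In the BMP and TGF-beta list of 33, 6 fell (18.2%, against 10.3% of all genes) and 3 rose (9.09%, against 6.58%). Only 1 was lower without shRad21_2 replicate 3, and 8 of the 9 calls were not kept without each library. The kept call was Ltbp1, which holds latent TGF-beta in the matrix, at 8.31 to 10.9 CPM and then 2.66 to 3.18 CPM (log2 -1.71, SE 0.17, edgeR adjusted p = 0.00147).

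Axon guidance genes, which neural stem cells and their progeny use for migration as well as wiring, were lower in 18 of 60 (30.0%, against 10.3% of all genes). They were higher in 2 (3.33%, against 6.58%), and the list median was -0.40. Beside Sema5a, the netrin receptor Dcc was at 17.8, 26.5 and 26.5 CPM under shRad21_1, at 5.86, 6.42 and 4.04 CPM under shRad21_2 and at 20.1 to 21.6 CPM in shNT (log2 -2.12, SE 0.22, edgeR adjusted p = 0.00165). Efnb2, an ephrin, was at 46.3 to 54.9 CPM and then at 23.4 to 25.6 CPM (log2 -1.03, SE 0.11, edgeR adjusted p = 0.00158). Of the 20 calls, 10 were kept without each library, 9 of them lower, which is the number lower without shRad21_2 replicate 3. The kept rise was Unc5a, a netrin receptor chosen here after its values were seen, at 11.5 to 13.7 CPM and then 19.4 to 21.1 CPM (log2 0.69, edgeR adjusted p = 0.00781).

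Ion channels and transporters moved in both directions. Of 42 voltage-gated channels tested, 9 fell (21.4%) and 3 rose (7.14%), against 10.3% and 6.58% of all genes. The number lower was 3 without replicate 2 or replicate 3 of shRad21_1, and 4 of the 12 calls were kept without each library. Kcnd2, a potassium channel of dendrites, was at 3.95 to 4.28 CPM and then at 0.416 to 0.665 CPM (log2 -2.99, SE 0.25, edgeR adjusted p = 9.4e-04). Kcna2 was at 41.7, 83.4 and 85.9 CPM, then 24.7, 19.6 and 12.7 CPM, with 128 to 197 CPM in shNT (log2 -1.89, edgeR adjusted p = 0.00897). Of 26 amino acid and transmitter carriers tested, 6 fell (23.1%) and 2 rose (7.69%), against the same shares of all genes. The number lower was 4 without replicate 2 or 3 of either hairpin. Slc6a6, the taurine transporter, rose from 158, 115 and 121 CPM to 268, 276 and 251 CPM (log2 1.01, SE 0.13, edgeR adjusted p = 0.00333), above an shNT level of 98.2 to 124 CPM. Slc6a17, a vesicular amino acid transporter, was at 3.79, 12.5 and 12.2 CPM and then at 0.792 to 0.838 CPM (log2 -3.54, SE 0.46, edgeR adjusted p = 0.00343).

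Interferon-stimulated genes, the antiviral and antigen-presentation genes switched on by interferon, were lower under shRad21_2. Of 41 tested, 20 fell (48.8%, against 10.3% of all genes) and 1 rose (2.44%, against 6.58%), and the list median was -0.96. Without shRad21_1 replicate 1, 27 of 43 fell, where 15.6% of all genes fell. Without shRad21_2 replicate 3 the number lower was 5, and 4 genes kept the call in all of these fits: Ifi27, Parp9, Parp14 and H2-K1. H2-K1, a class I antigen-presenting molecule, was at 45.2, 61.3 and 60.9 CPM under shRad21_1, at 27.0, 28.1 and 30.8 CPM under shRad21_2 and at 65.5 to 87.6 CPM in shNT (log2 -0.96, SE 0.14, edgeR adjusted p = 0.00496). It shares sequence with other class I genes, so its count is uncertain. Parp9, which acts with Dtx3l in interferon signalling, was at 9.31, 7.74 and 7.77 CPM, then 4, 2.46 and 3 CPM, with 9.24 to 9.58 CPM in shNT (log2 -1.39, SE 0.21, edgeR adjusted p = 0.00614). Ifi27 was at 32.9, 34.5 and 37.3 CPM, then 17.1, 13.6 and 14.6 CPM, with 14.2 to 16 CPM in shNT (log2 -1.21, SE 0.12, edgeR adjusted p = 0.00149). For Ifi27 it was shRad21_1 that lay above shNT, and shRad21_2 lay at the shNT level. The median level of the list was 0.53, 0.80 and 0.85 log2 units below shRad21_1 replicates 2 and 3 in the shRad21_2 libraries, 0.17 below in shRad21_1 replicate 1, and 0.04 to 0.08 above in shNT.

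The interferon-stimulated response element is a promoter sequence through which interferon acts, searched here as GAAANNGAAA on both strands in the 250 bases before the RefSeq start site. It was in 8 of 33 tested interferon-stimulated genes with a matched promoter (24.2%), in 2 of the 15 called lower (13.3%), and in 2.88% of all tested genes. The called holders of this motif in the list are shown, 2 lowered genes and the raised 1, chosen after their values were seen, with 1 match each in capitals. In Gbp3 a further match begins before the marked one and overlaps it. In Bst2 a further match overlaps the marked one and runs on after it. The remaining letters of these further matches are in lower case. Gbp2 and Gbp3 encode interferon-induced GTPases, and Bst2 encodes tetherin, which holds budding virus at the cell surface. The stretches are chr3:142620583-142620632 (plus strand), chr3:142559984-142560033 (plus strand, the first listed of the start sites of Gbp3) and chr8:71537573-71537622 (minus strand).
Gbp2: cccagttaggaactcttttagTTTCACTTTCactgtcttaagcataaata
Gbp3: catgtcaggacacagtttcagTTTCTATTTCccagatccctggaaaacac
Bst2: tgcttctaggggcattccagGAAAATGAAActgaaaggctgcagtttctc
Gbp2 was at 0.672, 1.72 and 1.66 CPM under shRad21_1 and at 0.394, 0.289 and 0.255 CPM under shRad21_2, and Gbp3 at 26.2, 14.5 and 15.9 CPM and then 12.1, 9.10 and 10.0 CPM. Bst2 was at 3.07, 1.99 and 2.14 CPM and then 8.64, 5.20 and 5.37 CPM, with 4.30 to 4.92 CPM in shNT. The same element thus stood upstream of genes that moved in opposite directions. The edgeR adjusted p was 0.0201 for Gbp2, 0.044 for Gbp3 and 0.0139 for Bst2, and none of the 3 calls was kept without each library: the adjusted p reached 0.0842 for Gbp2 and 0.142 for Gbp3 without shRad21_2 replicate 3, and 0.0524 for Bst2 without shRad21_1 replicate 2. It was also over 0.05 for Gbp2 without each library but shRad21_1 replicate 1 (from 0.0508), for Gbp3 without shRad21_1 replicate 3 or shRad21_2 replicate 1 or 2 (0.0679, 0.0755 and 0.122), and for Bst2 without shRad21_1 replicate 3 (0.052).

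Cytokines, chemokines and their receptors were lower in 11 of 33 (33.3%, against 10.3% of all genes) and higher in 2 (6.06%, against 6.58%). The list median was -0.37, and 7 lower calls were kept without each library. Ackr3, a scavenging chemokine receptor, was at 1.29, 3.52 and 2.46 CPM under shRad21_1 and at 0.0875 to 0.170 CPM under shRad21_2, with 4.35 to 6.26 CPM in shNT (log2 -4.28, SE 0.50, edgeR adjusted p = 0.00232). Il1rap, a co-receptor for interleukin 1, was at 56.7, 107 and 101 CPM, then 23.7, 23.8 and 23.4 CPM, with 107 to 113 CPM in shNT (log2 -1.90, SE 0.22, edgeR adjusted p = 0.00232). Il34, a ligand of the CSF1 receptor, was at 8.96, 4.48 and 3.59 CPM and then at 0.607 to 0.848 CPM. All 3 passed in all 16 alternatives. The median of the list in shNT was 0.25 to 0.50 log2 units above shRad21_1 replicates 2 and 3, so the list stepped down from shNT to shRad21_1 to shRad21_2.

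Genes of mitosis were higher under shRad21_2, by small folds. Of 38 condensin, kinetochore and spindle genes tested, 13 rose (34.2%, against 6.58% of all genes, list median 0.42). Without shRad21_1 replicate 1, 31 of 38 rose, and 1 rose without replicate 2 or replicate 3 of shRad21_1. The number higher over all genes moved the same way: 871 with all 6 libraries, 1408 without replicate 1, and 176 and 164 without replicates 2 and 3. Mad2l1, a spindle checkpoint protein, was at 58.9, 55.7 and 57.6 CPM under shRad21_1 and at 78.3, 81.0 and 87.2 CPM under shRad21_2 (log2 0.52, SE 0.08, edgeR adjusted p = 0.00698), and it alone kept the call throughout. Its shNT level was 55.7 to 73.6 CPM. Smc4, a condensin subunit, was at 228 to 244 CPM and then at 314 to 322 CPM (log2 0.44, edgeR adjusted p = 0.00932), and Aurkb, a mitotic kinase, at 83.5 to 86.8 CPM and then 109 to 126 CPM (log2 0.48, adjusted p = 0.0113). Both lost the call without replicate 2 or 3 of shRad21_1 (0.0665 and 0.0674 for Smc4, 0.057 and 0.0542 for Aurkb). The first replicates of the other groups were also above their own group: the median level of the list was 0.41 log2 units above shRad21_1 replicates 2 and 3 in shNT replicate 1, 0.27 above in shRad21_1 replicate 1 and 0.42 to 0.52 above in shRad21_2. So shNT replicate 1 reached nearly the level of the shRad21_2 libraries, while shNT replicates 2 and 3 were at -0.02 and -0.03.

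Replication genes showed 9 of 48 higher (18.8%, against 6.58% of all genes, list median 0.27). Tk1, thymidine kinase, was at 82.9, 102 and 97.6 CPM under shRad21_1, at 150, 158 and 185 CPM under shRad21_2 and at 99.8 to 117 CPM in shNT (log2 0.80, SE 0.12, edgeR adjusted p = 0.00548). It kept the call without each library and was alone in that among the 9, and the list had 2 higher without shRad21_1 replicate 3. Rrm2, a ribonucleotide reductase subunit, was at 380 to 393 CPM and then at 524 to 591 CPM (log2 0.51, edgeR adjusted p = 0.00833), and lost the call without shRad21_1 replicate 3 (0.0527). Among 25 G1/S regulators, 5 rose (20.0%, against 6.58% of all genes) and 4 fell (16%, against 10.3%). Cdkn1c alone kept its call, and it was the only call left without shRad21_2 replicate 3. Cdkn1c, an imprinted cyclin-dependent kinase inhibitor, was at 3.55, 5.62 and 5.68 CPM, then 11.4, 12.5 and 15.5 CPM, with 3.05 to 3.60 CPM in shNT (log2 1.40, SE 0.22, edgeR adjusted p = 0.00647). Cdk6, a kinase that drives G1, was at 0.861 to 1.01 CPM and then 0.0848 to 0.263 CPM, with 2.56 to 4.12 CPM in shNT (log2 -2.58, SE 0.47, edgeR adjusted p = 0.0114), a call lost without shRad21_2 replicate 3 (0.0578). Other calls of the list went the other way for the same kinds of gene: the inhibitor Cdkn2b fell (-1.24, edgeR adjusted p = 0.0188) and the kinase Cdk2 rose (0.38, adjusted p = 0.0319).

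Among genes activated by p53, 21.9% fell, against 10.3% of all genes. Of 32 p53 targets tested, 7 fell and edgeR called none higher, with 1 higher at an unadjusted p under 0.05, 1 by DESeq2 and 0 by limma-voom. Without shRad21_2 replicate 3 the number lower was 2, and these 2, Apaf1 and Gdf15, kept the call without each library. Apaf1, the scaffold of the apoptosome, was at 132, 92.7 and 92.0 CPM under shRad21_1, at 46.0, 52.7 and 39.9 CPM under shRad21_2 and at 72.7 to 77.5 CPM in shNT (log2 -1.19, SE 0.17, edgeR adjusted p = 0.00484). So shRad21_1 lay above shNT and shRad21_2 below it. Gdf15, a stress-induced cytokine, was at 7.42 to 8.77 CPM and then at 4.42 to 4.58 CPM (log2 -0.84, SE 0.14, edgeR adjusted p = 0.00868). In shRad21_1 replicate 1 the median level of the list was 0.54 log2 units above replicates 2 and 3, the highest of any library, and without it the list median was -0.01 in place of -0.25. Of 34 DNA repair genes tested, H2afx and Parp1 rose (5.88%, against 6.58% of all genes). H2afx, the histone H2AX, was at 210 to 234 CPM, then 331 to 403 CPM, with 219 to 304 CPM in shNT (log2 0.78, SE 0.10, edgeR adjusted p = 0.00376). Parp1 lost its call (adjusted p = 0.0287) without 4 of the 6 libraries, whereas H2afx kept it.

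**Figure D4:**
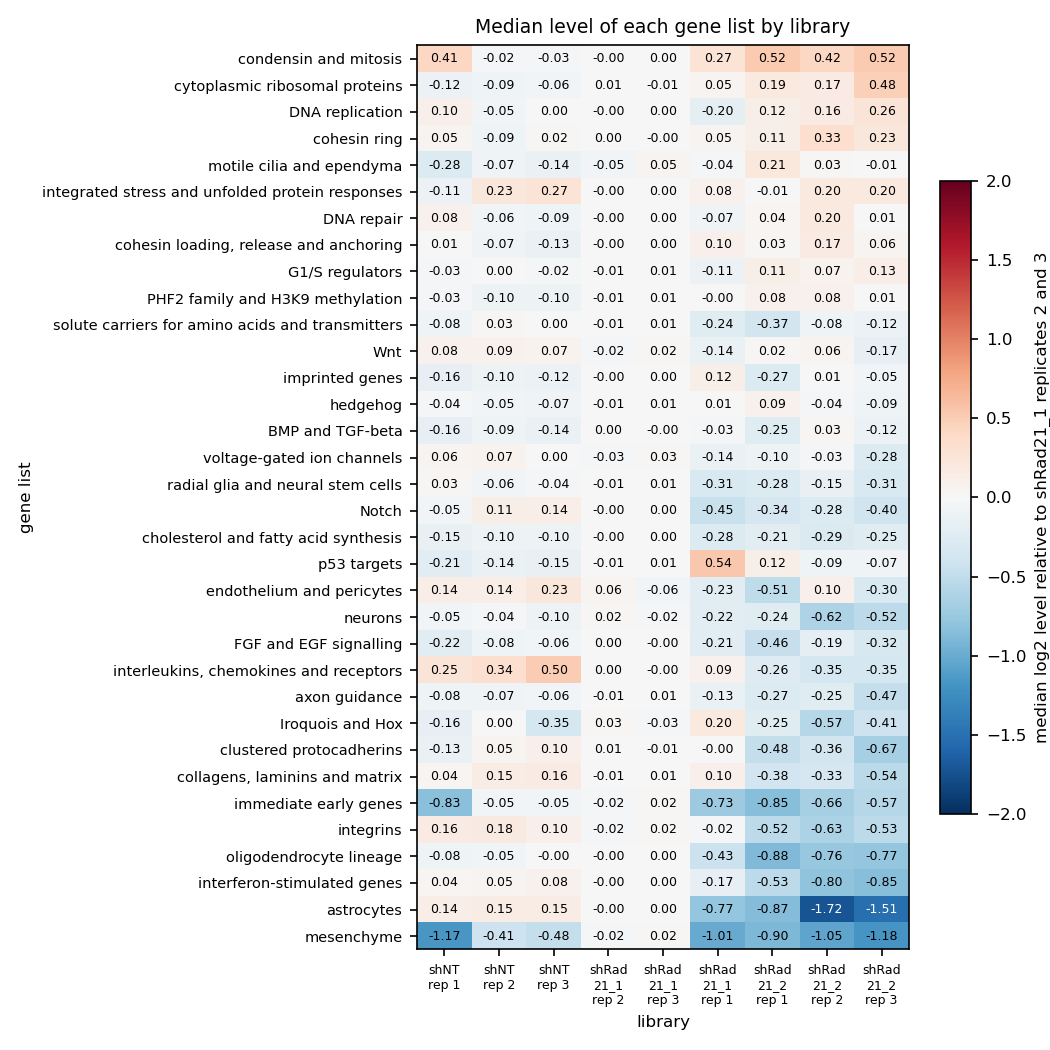
Median log2 level of each gene list with at least 5 tested members (rows) in each of the 9 libraries (columns), relative to the mean of shRad21_1 replicates 2 and 3, on log2(CPM + 0.5). Rows are ordered by the fitted median of shRad21_2 over shRad21_1. Replicate 1 of shRad21_1 follows shRad21_2 for astrocyte, mesenchymal and immediate early genes and stays near 0 for integrins and clustered protocadherins.

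Immediate early genes, which respond within minutes to growth factors, differed between replicates as well as between hairpins. Fos was at 9.12, 115 and 118 CPM under shRad21_1 and at 14.6 to 16.9 CPM under shRad21_2, so replicate 1 was lower than every shRad21_2 library. Egr1 was at 136, 741 and 764 CPM and then at 172 to 216 CPM, again with overlap. In shNT replicate 1 the median of the list was 0.83 log2 units below shRad21_1 replicates 2 and 3, in shRad21_1 replicate 1 it was 0.73 below, and in the shRad21_2 libraries 0.57 to 0.85 below. The first replicates of shNT and shRad21_1 therefore stood at the level of shRad21_2. With all 6 libraries 4 of 31 genes fell (12.9%, against 10.3% of all genes). Without shRad21_1 replicate 1, 18 fell and 2 rose, where 15.6% of all genes fell and 10.5% rose. No call of the 4 was kept without each library.

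The clustered protocadherins, adhesion proteins that give neurons their surface identity and whose promoters are chosen by cohesin and CTCF loops, were lower under shRad21_2. Of 47 tested on chromosome 18, 17 fell (36.2%, against 10.3% of all genes, list median -0.52). Of these, 7 kept the call without each library, the number left without shRad21_1 replicate 3. Pcdhga2 was at 11.8, 14.3 and 13.6 CPM under shRad21_1, at 6.54, 6.04 and 6.53 CPM under shRad21_2 and at 10.1 to 12.3 CPM in shNT (log2 -1.05, SE 0.13, edgeR adjusted p = 0.00298). Pcdhb9 was at 19, 20.8 and 18.5 CPM, then 10.3, 8.15 and 7.55 CPM, with 8.33 to 9.52 CPM in shNT (log2 -1.16, SE 0.15, edgeR adjusted p = 0.00303). Pcdhb10 was at 23.5 to 25.2 CPM, then at most 15 CPM, with 10.2 to 13.9 CPM in shNT (log2 -0.75, SE 0.10, edgeR adjusted p = 0.00408). For these beta genes shRad21_1 stood above shNT and shRad21_2 close to it, while Pcdhga2 in shRad21_2 stood below both. Pcdhgc3, the most abundant of the 7, was at 1390 to 1590 CPM, then 921 to 1040 CPM, with 1550 to 1610 CPM in shNT (log2 -0.60, edgeR adjusted p = 0.00816). Replicate 1 of shRad21_1 did not stand apart over this list, with a median of 0.00 against replicates 2 and 3. The alpha and gamma genes share their last exons within a cluster and the beta genes resemble each other, so how their reads were divided is uncertain.

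Imprinted genes, expressed from a single parental allele under CTCF- and cohesin-dependent control at several loci, moved in both directions. Of 21 tested, 4 rose and 6 fell, where 6.58% of all genes rose and 10.3% fell. Without shRad21_2 replicate 3, 1 was lower, and the number lower over all genes was 517 in place of 1362. Nnat, a neuronatin of fetal brain, was at 281 to 301 CPM, then 174 to 203 CPM, with 323 to 379 CPM in shNT (log2 -0.62, SE 0.09, edgeR adjusted p = 0.00528). Nap1l5 was at 78.8 to 81.6 CPM, then 116 to 137 CPM, with 95.4 to 96.1 CPM in shNT (log2 0.66, SE 0.09, edgeR adjusted p = 0.00397). Both and Cdkn1c kept the call without each library. At the shared H19 and Igf2 locus on chromosome 7, H19 was at 0.269, 5.30 and 6.08 CPM and then 0.0438 to 0.226 CPM, and Igf2 at 5.57, 2.44 and 2.67 CPM and then 0.678 to 1.18 CPM. Replicate 1 of shRad21_1 was the lowest of its group for H19 and the highest for Igf2. Igf2 fell by 1.87 on the log2 scale (edgeR adjusted p = 0.019) and lost the call without replicate 1 or 3 of shRad21_2 (0.0666 and 0.0748). Most Hox genes had no or few counts, and 9 of 44 Iroquois and Hox genes were tested. Hoxa5 was at 4.09, 3.34 and 2.67 CPM, then 0.569 to 0.707 CPM, with 1.55 to 1.92 CPM in shNT (log2 -2.44, SE 0.26, edgeR adjusted p = 0.00175).

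Phf2, the floxed gene, encodes a histone demethylase and was not called between the hairpins. It was at 193, 184 and 191 CPM under shRad21_1, at 201, 204 and 180 CPM under shRad21_2 and at 141 to 151 CPM in shNT (log2 0.04, SE 0.08, edgeR adjusted p = 0.745). Its relative Phf8 did: it was at 16.6, 16.6 and 19.3 CPM under shRad21_1, at 37.3, 36.7 and 32.9 CPM under shRad21_2 and at 38.0 to 40.3 CPM in shNT. For Phf8 the weaker hairpin was the group that lay away from shNT. The fold change was 1.03 (log2, SE 0.11, edgeR adjusted p = 0.0019), kept without each library. Of 20 genes of the PHF2 family and H3K9 methylation tested, 2 rose (10.0%, against 6.58% of all genes) and 1 fell (5.0%, against 10.3%). The others were Cbx1, a heterochromatin protein (0.38, adjusted p = 0.0343), and Kdm4c, an H3K9 demethylase (-0.31, adjusted p = 0.0408), and both lost the call without 4 or 5 of the libraries.

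Metabolic and biosynthetic genes moved in both directions, by small folds. Of 31 cholesterol and fatty acid synthesis genes tested, 7 fell (22.6%, against 10.3% of all genes) and 1 rose (3.23%, against 6.58%). The number lower was 2 without shRad21_1 replicate 2, shRad21_1 replicate 3 or shRad21_2 replicate 3, and Cyp51, Tm7sf2 and Elovl6 kept the call without each library. Cyp51, a sterol demethylase, was at 449 to 461 CPM, then 305 to 322 CPM, with 377 to 392 CPM in shNT (log2 -0.53, SE 0.08, edgeR adjusted p = 0.00502). Elovl6, a fatty acid elongase, was at 190 to 201 CPM, then 299 to 347 CPM, with 203 to 232 CPM in shNT (log2 0.68, SE 0.09, edgeR adjusted p = 0.00397). Of 32 genes of the integrated stress and unfolded protein responses, 5 rose (15.6%, against 6.58% of all genes) and 4 fell (12.5%, against 10.3%). Cebpg and Vldlr alone kept the call. Without replicate 2 or replicate 3 of shRad21_1, 2 were higher and 1 lower. Cytoplasmic ribosomal protein genes were higher in 10 of 77 (13.0%, against 6.58% of all genes, list median 0.28). The edgeR count was 28 without shRad21_2 replicate 2, 14 without shRad21_1 replicate 1 and 0 without any of the other 4 libraries or with shRad21_1 replicates 2 and 3 summed. With all libraries it was 28 by DESeq2, 9 by limma-voom and 38 at an unadjusted p under 0.05. Many ribosomal protein genes have processed pseudogenes that could share their reads.

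Called genes were sorted by the length of the gene from GENCODE M21 annotation of GRCm38, which placed 12718 of the tested genes (96.1%). Long genes were lower under shRad21_2 more often than short genes. In the shortest of 5 equal groups, with a median of 4.57 kb, 6.72% of genes fell and 7.0% rose. In the longest, with a median of 137 kb, 17.5% fell and 5.03% rose. The median log2 fold change went from 0.07 in the shortest group to -0.10 in the longest. The median log2 CPM, from the shortest group to the longest, was 4.34, 4.85, 5.05, 5.32 and 4.91. It climbed with length up to the longest group, and the shortest group was the lowest. The part of expression level in the shares called was not tested. Leaving out shRad21_1 replicate 1, the shares lower were 11.9% and 22.3%, and the shares higher 10.5% and 9.79%. These are shares across genes, which are not independent replicates.

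**Figure D5:**
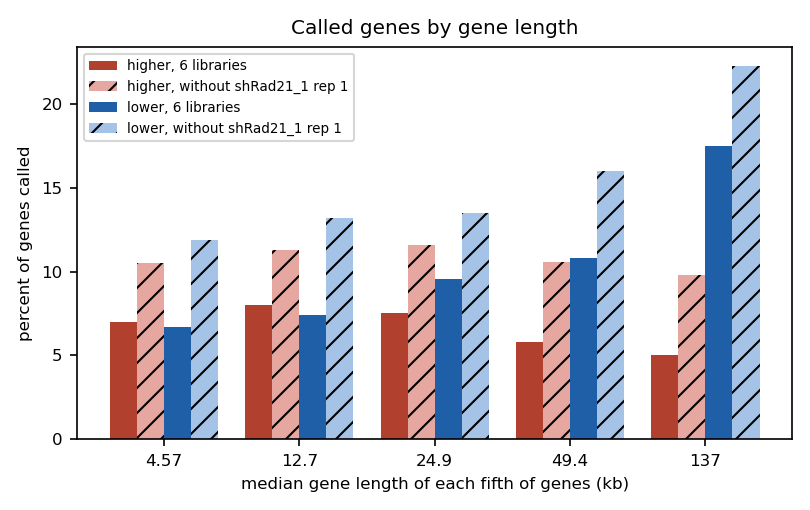
Percent of genes called higher or lower under shRad21_2 (y axis, from 0) in 5 equal groups of genes by length (x axis, median length in kb). Plain bars use all 6 libraries and hatched bars leave out shRad21_1 replicate 1. The share lower climbs from 6.72% to 17.5%, and the share higher does not climb.

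Neighbouring genes were compared because loops can join genes along a chromosome. Of 8476 pairs of next neighbours that were both tested, 156 were called in the same direction, 121 both lower and 35 both higher, and 91 in opposite directions. Among pairs with both members called, 63.2% went the same way. Called genes as a whole leaned lower, with 39.0% higher, and the share expected from that lean alone was not computed. The share of all pairs called the same way was 1.44% up to 10 kb between start sites, 1.67% from there to 50 kb, 1.81% to 200 kb and 3.42% beyond. The share of genes called also grew with distance, from 12.2% to 23.8%, so close pairs held fewer called genes to begin with. Among pairs with both members called, the share the same way was 65.1%, 68.0%, 58.0% and 62.5% from the nearest to the farthest. Leaving out shRad21_1 replicate 1, that share went down with distance, at 73.6%, 67.5%, 57.9% and 55.9%, while the share of all pairs went up, at 3.44%, 4.28%, 4.52% and 6.5%.

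Runs of 3 next neighbours called the same way numbered 13, and all 13 were lower under shRad21_2. Of the 2233 called genes, 1362 were lower, and the number of runs expected from that lean was not computed. Members of these runs that no list or rule named are given here after their values were seen. On chromosome 7, Grm5 was followed by Ctsc, a lysosomal protease, at 118, 186 and 188 CPM and then 61.4, 79.7 and 85.7 CPM (log2 -1.12, SE 0.20, edgeR adjusted p = 0.0106), and by Rab38 (-0.96). On chromosome 6, Cav2, Cav1 and Met fell by 0.66, 3.0 and 3.9. Cav1, which builds caveolae, was at 8.18, 30.4 and 27.4 CPM and then 3.85, 1.85 and 2.46 CPM, with 9.03 to 17.3 CPM in shNT. Its call was lost without shRad21_2 replicate 3 (edgeR adjusted p = 0.0582), that of Met without shRad21_2 replicate 1 (0.0544), and that of Cav2 whichever library other than shRad21_1 replicate 1 was left out (0.0636 to 0.125). On chromosome 16 the run was Parp14, Parp9 and Dtx3l, which belong to the interferon list (-1.76, -1.39 and -1.06). Parp9 and Dtx3l lie on opposite strands and overlap at their starts, so without strand their reads cannot be fully told apart. A further 2 runs lay within the protocadherin beta cluster.

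The run on chromosome 10 held Anks1b, Apaf1 and Ikbip, lower by 4.14, 1.19 and 0.62 on the log2 scale. Anks1b, a postsynaptic scaffold, was at 20.7, 60.9 and 66.2 CPM under shRad21_1, at 3.30, 2.60 and 2.40 CPM under shRad21_2 and at 66.0 to 66.9 CPM in shNT. Ikbip was at 46.7, 48.2 and 45.0 CPM, then 31.2, 28.4 and 31.7 CPM, with 43.4 to 49.7 CPM in shNT (SE 0.09, edgeR adjusted p = 0.00598). Apaf1 and Ikbip are read outwards from a shared gap of 169 bases, and all 3 genes kept the call without each library. The gap is shown because both genes beside it fell; it runs over chr10:91082771-91082939 on the plus strand (GRCm38.p6), between the gene ends of GENCODE, with the SP1 box in capitals.
Apaf1-Ikbip: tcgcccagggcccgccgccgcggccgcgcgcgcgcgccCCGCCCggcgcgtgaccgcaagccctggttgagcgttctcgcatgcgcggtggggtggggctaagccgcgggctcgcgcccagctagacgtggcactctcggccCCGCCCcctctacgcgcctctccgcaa
It holds 2 such boxes, both as CCGCCC on this strand. Of 650 tested pairs read outwards within 1 kb, 4 were called the same way and 5 in opposite directions, and without shRad21_1 replicate 1 the numbers were 16 and 6. Pairs that overlap at their starts, such as Parp9 with Dtx3l and Col4a1 with Col4a2, were not counted among them.

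Promoters of the called genes were searched for 5 short motifs in the 250 bases before the RefSeq start site, on both strands, over 10026 tested genes with a match. The CTCF core CCANNAGNNGGC was in 2.94% of all of them, in 3.28% of those called higher and in 3.06% of those called lower. The response element GAAANNGAAA was in 2.88%, 2.99% and 3.16%. The GAS element TTCNNNGAA was in 7.03%, 8.96% and 7.51%. The SP1 box GGGCGG was in 65.3%, 68.2% and 64.2%, and the box CCAAT in 40.7%, 39.4% and 41.4%. Among matrix genes called lower, 8 of 11 with a match held the SP1 box (72.7%). The shares lie close together, and a match is a description of letters, not a bound site.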

How the data were processed

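RNA was measured in 9 libraries of primary mouse neural stem cells, 3 for each hairpin. The authors deposited whole-number counts per gene. Per the submitters' processing notes, FastQC, cutadapt, Trim Galore, Bowtie2 and RSEM were used with mm10; the notes name no versions, roles or strand setting. The deposited counts of the 6 Rad21 hairpin libraries were fitted with edgeR 4.0.16 (R 4.3.3), by its quasi-likelihood test with TMM scaling and filterByExpr, and p-values were adjusted over all 13230 genes (Benjamini-Hochberg, 0.05). CPM values were computed from the counts on TMM-scaled totals. DESeq2 1.42.0, limma-voom (limma 3.58.1) and other scalings, filters and sample sets gave 16 alternatives. The fitting was tested on simulated data for 13230 genes, of which 200 were changed 2-fold. It recovered 68% of the changed genes and called 13 unchanged genes. Smaller changes were not simulated.

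Members and gene lists were chosen with earlier results of these data known. Named genes were Rad21, Phf2, all tested cohesin genes, the 3 of smallest p in each of 35 lists (all tested members of a list where 5 or fewer were tested), and 15 in each direction with the largest change. These 15 were called with and without shRad21_1 replicate 1, had a mean log2 CPM of at least 1, did not overlap between groups and had no clone name. This gave 145 genes, of which 119 were called and 76 kept the call without each library. Bcas1, Bst2, Cav1, Cav2, Col12a1, Col18a1, Col4a1, Col4a2, Col5a1, Ctsc, Dtx3l, Egr1, Fn1, Fos, Fzd1, Gbp2, Gbp3, Gli3, Igf2, Ikbip, Itga2, Met, Nes, Parp14, Pcdhgc3, Rab38, Rnf43, Sox2, Unc5a and Wnt4 fell outside that rule and were chosen after their values were seen. Positions are from GENCODE M21 and promoters from RefSeq (GRCm38.p6). The depth of 34780003 to 46644607 counts per library limits levels near 3 counts, and intervals cover counting error only. Replicate numbers were not taken as pairs between the 2 Rad21 hairpin groups; pairing with shNT was not tested.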

Additional observations from a re-analysis of the deposited data

How the results depend on the processing

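The main count of 2233 called genes (871 higher, 1362 lower) became 3563 with all 9 libraries in one fit (1608 higher), 804 with shRad21_1 replicates 2 and 3 summed (170 higher, 634 lower) and 137 when tested against an absolute log2 fold change of 1 (6 higher, 131 lower), where Rad21 at -1.08 no longer passed. With 1 library left out, it ran from 770 to 3509, with 164 to 1408 higher and 517 to 2101 lower. The cause of this range was not tested. Each such fit changed both the number of libraries and which libraries were in it. Without shRad21_1 replicate 1, the share of the shortest genes was 10.5% higher and 11.9% lower, that of the longest 9.79% and 22.3%, and neighbours called the same way made up 3.44%, 4.28%, 4.52% and 6.5% from the nearest to the farthest.

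With the replicate number as a block, 1663 genes were called, 563 higher and 1100 lower. The correlations of the deviations of same-numbered libraries were 0.104, -0.002 and 0.037, and shRad21_1 replicate 2 correlated best with shRad21_2 replicate 3 (0.11), so the numbers were not taken as pairs. Of 144 named genes, 9 lost the call under the block, 28 with the summed library and 37 without shRad21_2 replicate 3, the most for any library.

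Reversed signs were all of uncalled genes. On library totals Phf2 and Wapal gave -0.01. With 1 library left out, Stag3 ran from -0.19 to 0.10, Nipbl from -0.11 to 0.25, Mau2 up to 0.01, Wapal from -0.04 (also -0.01), Pds5a from -0.09 to 0.15, Pds5b from -0.04 to 0.18, Emcn from -0.38 to 0.54, Vwf from -0.81 to 0.39, and Esam from -0.84 to 0.11 (also 0.01). Under limma-voom Emcn gave 0.06 and Vwf 0.23, and under the block Emcn gave 0.03.

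Genes near 3 counts per library, among them Nebl and Scg2 under shRad21_2, are limited by depth, and small folds by the number of libraries.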
